A study of Mus musculus with 586 samples.

Results

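Trh and Gal are 2 of the 23361 genes measured in a spatial survey of the gastrulating mouse embryo. They were chosen by name, with their levels in these libraries already known, so their values are described here and carry no test. Trh encodes the precursor of thyrotropin-releasing hormone, a short peptide that the hypothalamus of the adult sends to the pituitary. Gal encodes the precursor of galanin, a neuropeptide of the brain, spinal cord and gut. Both precursors enter the secretory pathway, where prohormone convertases cut them, carboxypeptidases trim the cut ends and an amidating enzyme finishes the carboxyl end. The finished peptides act through G protein-coupled receptors, encoded by Trhr and Trhr2 for thyrotropin-releasing hormone and by Galr1, Galr2 and Galr3 for galanin.

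The embryos were C57BL/6 mice, for which the labels name no mutant allele and no agent, collected at embryonic days 5.5, 6.0, 6.5, 7.0 and 7.5 (E5.5 to E7.5). Cells were cut by laser from known positions in cryosections, about 20 cells per library by the submitters' account, and their RNA was sequenced (Geo-seq). A column of values was found for 473 of the 586 samples. These came from 18 embryos, with 2 embryos at E5.5, E6.0 and E7.0 and 6 embryos at E6.5 and at E7.5. Libraries carry a section, counted upwards from 1 at the distal tip, and a code for the region. The labels do not spell the codes out, and they are taken here in the sense of the study's atlas. A stands for anterior and P for posterior epiblast or ectoderm, with L and R for its sides. EA is anterior endoderm, EP posterior endoderm and VE visceral endoderm, and M, MA and MP are mesoderm. A/P and EA/EP are tip sections collected whole. At E7.5, A was matched in all 6 embryos, P in embryos 3 to 6, the lateral codes L1, L2, R1 and R2 in embryo 3, the codes EA, EP, MA and MP in embryos 5 and 6, and the codes E1, E2, M1 and M2, which the labels do not explain, in embryo 4. Endoderm at E6.5 came from embryos 5 and 6 and VE at E6.0 from embryo 2. The deposited values of E6.5 embryo 6 carry E6.0 in their name, and the stage given in the labels was used. A group of 1 or 2 embryos gives a poor estimate of the spread. In pieces of tissue, fewer cells that make a transcript and less transcript per cell cannot be told apart.

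Values are fragments per kilobase of transcript and per 1000000 mapped fragments (FPKM), a scale on which levels of different genes in a library can be set side by side. The sum of FPKM over all genes differed between libraries, with embryo medians of 168531 to 923904. Levels set side by side across embryos and stages were not rescaled for this. An embryo's level in a region is its mean over sections, given as FPKM or as the mean of log2(FPKM + 1). Rough depth, worked out from the smallest steps in the values, had a median of 3253000 reads per library. At that depth 1 read was worth 0.26 FPKM of Trh and 0.58 FPKM of Gal in the median library, so that levels of this size are at the limit of detection. In all, 26 libraries listed fewer than 5000 genes at 1 FPKM or more or gave over 30% of their sum to 1 gene. Of these, 6 were EA, 3 EP and 1 EA/EP libraries of E6.5. None of the 50 libraries with the most Trh was among them and 1 of the 50 with the most Gal was. At E7.5 all 13 listed definitive endoderm markers and 24 of 25 visceral endoderm markers were detected in at least 1 EA library, the exception being Alb. Detection in 1 library is a weak check of the code. The definitive markers summed to 209 and 213 FPKM in EA of E7.5 embryos 5 and 6, against 5.44 and 6.01 in P. The visceral markers summed to 2868 and 6236 FPKM in EA, against 374 and 187 in P.

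In the GENCODE vM21 annotation neither gene overlaps another gene. The annotation behind the deposited values is not given in the sources used here. Trh lies on the minus strand of chromosome 6 at chr6:92242061-92244650 (GRCm38, GENCODE vM21) and has 1 transcript of 3 exons and 1384 bases. Gal lies on the minus strand of chromosome 19 at chr19:3409915-3414544 and has 2 transcripts, of 672 and 788 bases, with 6 exons in the longer one. The 2 Gal transcripts start at different bases, 3414544 for the longer and 3414447 for the shorter, 97 bases further into the gene. The 250 bases before the start of Trh and before the outer start of Gal are shown because the 2 genes were highest in different tissues and first appeared at different stages. The part of these letters in the levels was not tested. The sequences are from RefSeq (GRCm38.p6), written 5′ to 3′ along the gene. The Trh sequence is chr6:92244651-92244900 and the Gal sequence is chr19:3414545-3414794, both on the minus strand, and capitals mark the 2 matches described after them.
Trh: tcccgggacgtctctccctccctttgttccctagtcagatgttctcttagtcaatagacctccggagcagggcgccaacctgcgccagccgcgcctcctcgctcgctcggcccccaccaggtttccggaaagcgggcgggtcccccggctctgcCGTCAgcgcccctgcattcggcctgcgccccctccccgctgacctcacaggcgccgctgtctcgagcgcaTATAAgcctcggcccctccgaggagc
Gal: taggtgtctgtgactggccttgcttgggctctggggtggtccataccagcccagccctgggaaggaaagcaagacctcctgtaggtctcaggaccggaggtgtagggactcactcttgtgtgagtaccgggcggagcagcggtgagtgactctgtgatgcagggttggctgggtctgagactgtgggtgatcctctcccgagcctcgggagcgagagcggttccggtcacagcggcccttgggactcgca

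Of 8 motifs searched on both strands, Trh had a TATA box (TATAA) that begins 26 bases before the start and a cyclic AMP response element core (TGACG, on the other strand) whose match begins 96 bases before it. TATAA stood in 22.8% and TGACG in 17.8% of 32851 mouse promoter windows. The Gal window held neither of these nor the other 6 motifs (TGTTTAC of forkhead factors, CTTTGAT of TCF and LEF factors, TTTGCAT of OCT factors, GGTGTGA of T-box factors, ACAAT of SOX factors and AGATAA of GATA factors), and the Trh window held none of these 6 either. The RefSeq entries run 50 bases past the start, and there Gal held 1 of the 8 motifs, TGACG, from base 20 of the longer transcript, and Trh held none. TGACG stood in 20.8% of all windows of that full length. The last 47 bases before the shorter Gal transcript were not searched. A match is a string of letters and not a shown binding site. G and C made up 68.8% of the Trh window and 62.4% of the Gal window.

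Trh was at or near 0 before E6.0 and then filled the epiblast. At E5.5 it was above 0 in 3 of 22 libraries, all of embryo 1, with a highest value of 17.1 FPKM. At E6.0 it was at 10 FPKM or more in 17 of 22 libraries. The 5 E6.0 libraries at 0 were the 4 VE libraries of embryo 2 and 1 P library of embryo 1. In A at E6.0, embryo 1 held 27.2 to 56.5 FPKM over 4 sections and embryo 2 held 48.3 to 62.6. The VE libraries of embryo 2 were thus at 0 where A and P of that embryo lay between 17.7 and 62.6 FPKM.

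At E6.5 Trh was detected in every epiblast library of all 6 embryos, from 15.5 FPKM in P of embryo 5 to 348 FPKM in A of embryo 1. The embryo means in A were 214, 171, 96.5, 158, 45.9 and 70.3 FPKM for embryos 1 to 6. In P they were 232, 143, 205, 150, 97.4 and 107 FPKM. A and P overlapped, and P exceeded A in 4 of 6 embryos, by 0.32 ± 0.60 log2 units over all 6 (SD, n = 6), which is less than the spread between embryos. Embryos 5 and 6 were the lowest in both regions. Over 37 P libraries the mean was 151 FPKM, which placed Trh 532nd among the genes of that group. The slope of Trh along the sections, from 0 for the tip end to 1 for the proximal end of an embryo, was -0.88 ± 0.68 log2 units in A and -1.28 ± 1.27 in P (SD, n = 6 embryos), and it ran from -1.95 to 0.07 in A and from -2.82 to 0.42 in P.

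**Figure D1:**
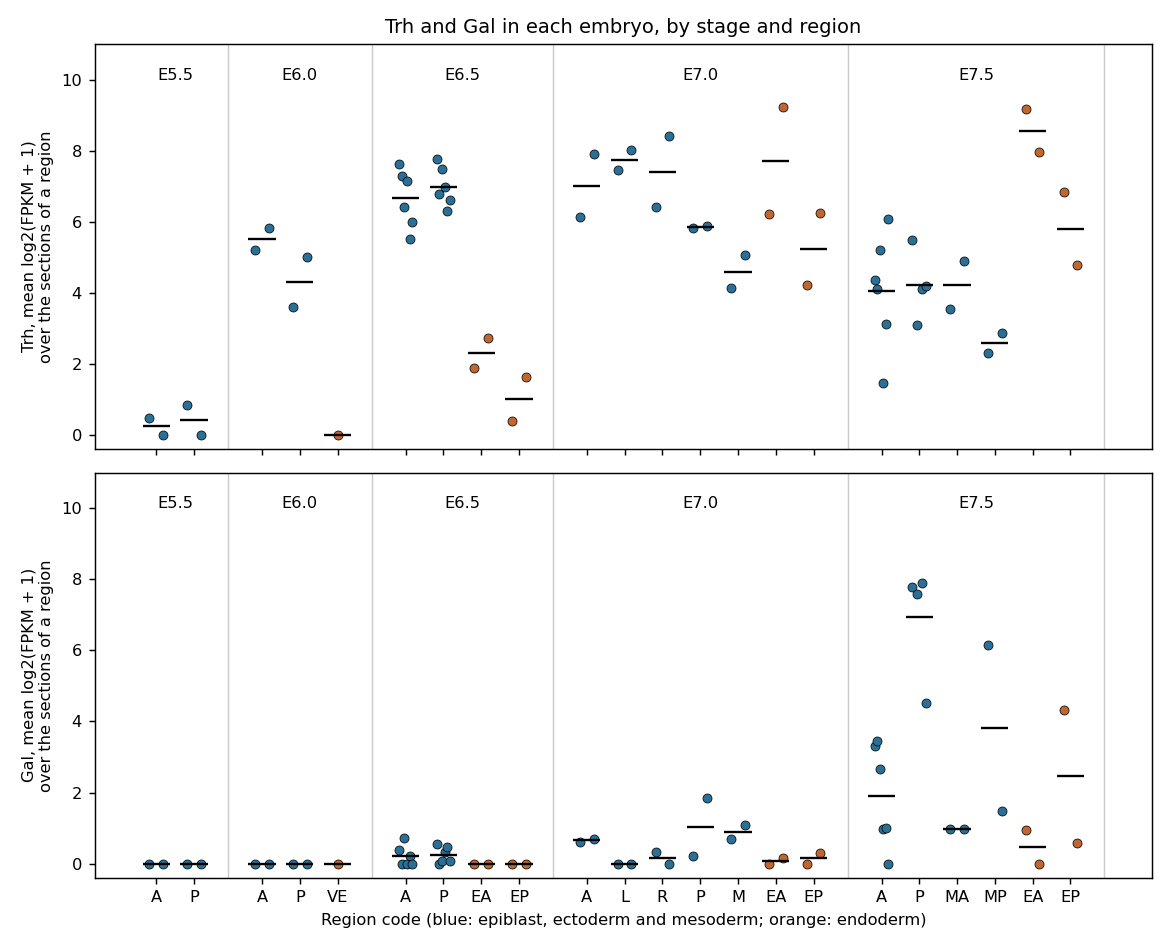
Trh (top) and Gal (bottom) by stage and region. Each point is 1 embryo's mean log2(FPKM + 1) over the sections of a region (y axis), lines are means over embryos, and the region codes are on the x axis with endoderm in orange. Trh is high in A and P but low in EA and EP at E6.5. Its highest group mean is in EA at E7.5, where the embryos overlap those of EA at E7.0. Gal stays near 0 until E7.5 and is then highest in P.

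The endoderm of the same E6.5 embryos held little Trh. In embryo 5 the 7 EA libraries ran from 0 to 42.5 FPKM with a median of 0.85, and the 7 EP libraries from 0 to 2.00. In embryo 6 EA ran from 0 to 29.5 FPKM with a median of 8.54, and EP from 0 to 11.0. EA was below P in 7 of 7 sections of both embryos, and EP was too. Averaged over sections, endoderm was lower than epiblast by 4.78 log2 units in 1 of these embryos and by 4.12 in the other, a mean difference of -4.45 ± 0.47 (SD, n = 2). These endoderm libraries were shallow, with a median of 1762000 reads in EA of embryo 5 and 1333000 in EA of embryo 6, and the part of depth in the difference was not tested. Without the libraries that listed few genes or were led by 1 gene it was -4.47.

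By E7.0 the anterior endoderm had joined the epiblast among the tissues rich in Trh. In embryo 2 the 10 EA libraries ran from 212 to 905 FPKM with a median of 613. In embryo 1 they ran from 1.23 to 343 FPKM with a median of 94.2, so that the 2 embryos overlapped only between 212 and 343 FPKM. EA exceeded P in 10 of 10 sections of embryo 2 and in 7 of 10 of embryo 1. EP lay lower, with a median of 91.1 FPKM in embryo 2 and 20.7 in embryo 1. EP was below EA in 10 of 10 and in 8 of 10 sections, a mean difference of -2.49 ± 0.71 log2 units (SD, n = 2).

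Embryo 2 exceeded embryo 1 at E7.0 in A, L, R, EA and EP as well as in M, but P was alike in both. The embryo means in P were 5.82 and 5.89 log2 units. In A they were 6.13 and 7.89 and in EA they were 6.20 and 9.23. Median depth in EA was 3806000 reads in embryo 1 and 2045000 in embryo 2, and the part of depth in the difference between embryos was not tested. Outside the endoderm the highest library was R of embryo 2 at section 3, with 602 FPKM. The highest P library held 487 FPKM, in embryo 1, the highest A library 484 and the highest L library 426, both in section 3 of embryo 2. Endoderm minus epiblast averaged 0.60 ± 1.54 log2 units (SD, n = 2), with 1 embryo at -0.49 and the other at 1.69, so no direction was shared at this stage.

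Within P and M, Trh at E7.0 fell steeply from distal to proximal. In P of embryo 1 it was 160, 487, 195 and 222 FPKM in sections 1 to 4 and 5.33 and 8.24 FPKM in sections 10 and 11. In P of embryo 2 it was 168, 256, 126 and 113 FPKM in sections 1 to 4 and 39.6 and 11.3 FPKM in sections 10 and 11. The slopes were -4.55 ± 1.12 log2 units in P and -4.19 ± 1.23 in M (SD, n = 2), negative in both embryos. M lay below the P of its own sections by 1.11 ± 0.60 log2 units (SD, n = 2), and the highest M library held 89.8 FPKM.

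At E7.5 Trh reached its highest group mean and its highest single library of the series in the anterior endoderm. The EA embryo means were 9.17 and 7.95 log2 units, against 6.20 and 9.23 at E7.0, so the 2 stages overlapped. EA of embryo 5 ran from 136 to 1152 FPKM over 9 sections with a median of 698, and EA of embryo 6 from 8.70 to 641 with a median of 351. Its mean over the 18 EA libraries, 517 FPKM, placed it 141st of all genes there. EA exceeded P in 9 of 9 sections of embryo 5 and in 8 of 9 of embryo 6, the exception being section 10. EA exceeded A in all 3 sections that held both, in each embryo. Endoderm exceeded epiblast by 4.12 log2 units in 1 embryo and 1.83 in the other, a mean of 2.97 ± 1.61 (SD, n = 2). A was sampled in only 3 of these sections, and with only sections that held A, P, EA and EP the mean was 3.17. The order of the 2 tissues was thus opposite to E6.5 in both embryos of each stage, and this difference between stages was not tested.

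Anterior and posterior endoderm differed in the same direction in all 6 embryos. EP minus EA was -1.30 ± 0.27 log2 units at E6.5, -2.49 ± 0.71 at E7.0 and -2.76 ± 0.59 at E7.5 (SD, n = 2 at each stage). At E7.5 EA was above EP in all 9 sections of both embryos. In EP of embryo 5 Trh was 336 FPKM in section 4 and 5.00 in section 10, and in EP of embryo 6 it was 293 FPKM in section 3 and 0 in sections 9 and 10. Trh in EP was low or at 0 at the proximal end, with a slope of -6.07 ± 3.64 log2 units (SD, n = 2). EA had no shared slope, with -2.59 in 1 embryo and 0.87 in the other. Over both endoderm regions the slope was 1.29 ± 0.53 at E6.5, -3.31 ± 0.05 at E7.0 and -3.46 ± 3.04 at E7.5 (SD, n = 2).

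The sums of 2 endoderm marker lists differed between EA and EP in different ways. The summed level of the 13 definitive endoderm markers, among them Sox17, Cer1 and Hhex, was higher in EA than in EP in all 6 embryos, for example 209 and 213 FPKM in EA against 71.0 and 61.4 in EP at E7.5. The 25 visceral endoderm markers, among them Ttr and Afp for secreted carrier proteins, summed to more in EP than in EA in 5 of 6 embryos, with 2868 and 6236 FPKM in EA and 5687 and 10956 in EP at E7.5. In E7.0 embryo 1 that sum was 8700 FPKM in EA and 6546 in EP. At E6.5 the definitive sum was 107 and 156 FPKM in EA of embryos 5 and 6, where the visceral sum was 900 and 4363. EA libraries thus held markers of both lists, and the sums do not tell kinds of endoderm apart. The part of either list's cells in the Trh difference was not tested.

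**Figure D2:**
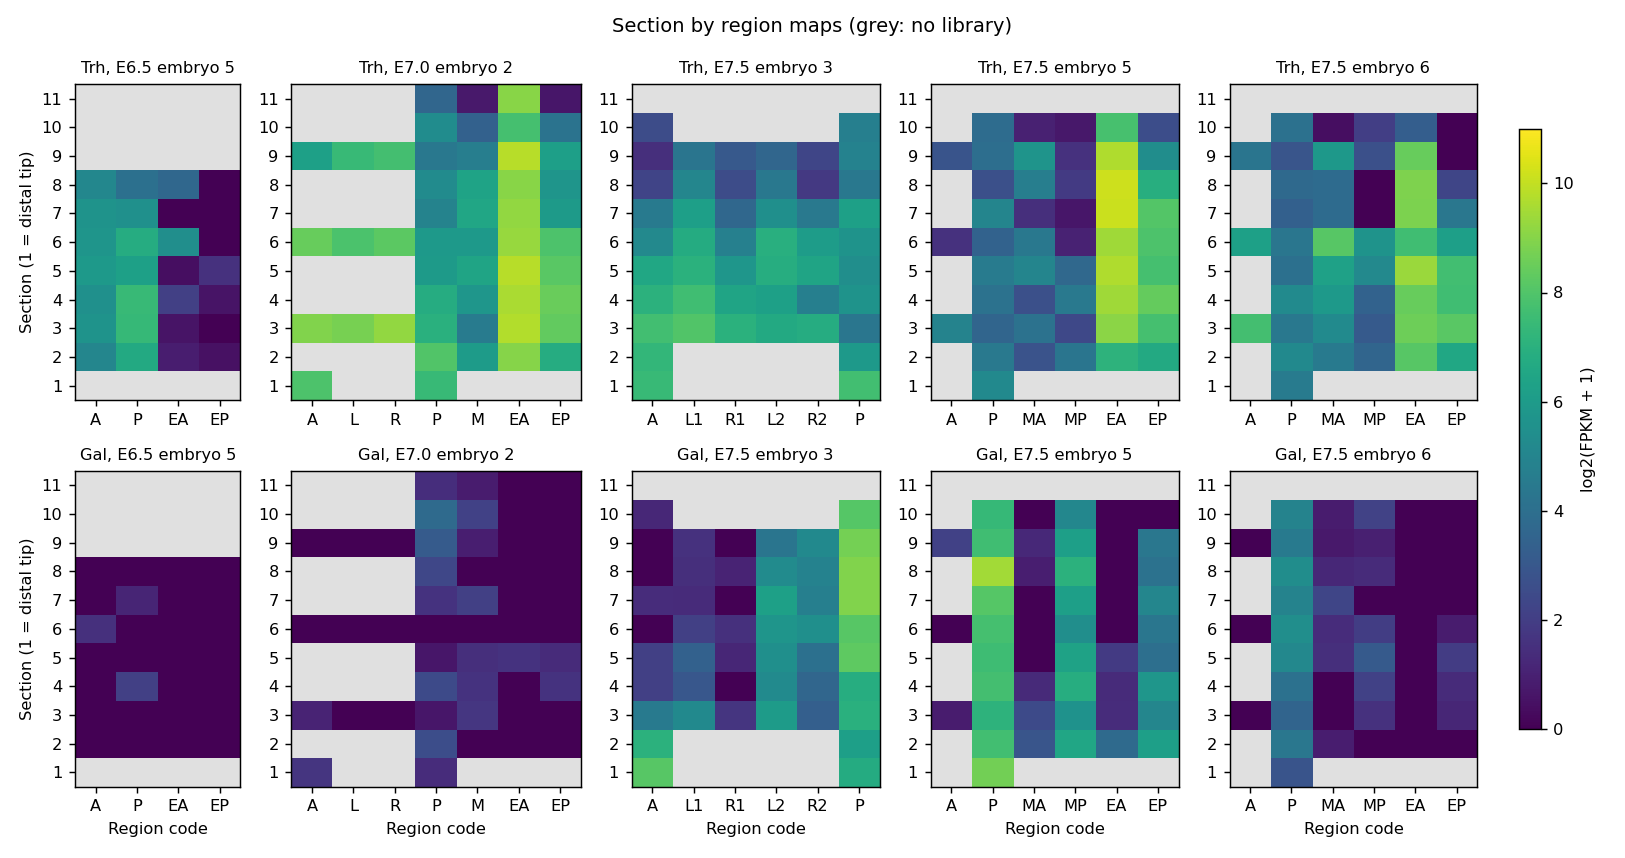
Levels by section (y axis, 1 is the distal tip) and region code (x axis) in 5 embryos, with colour as log2(FPKM + 1) and grey where no library was mapped. Trh (top) is bright in the epiblast of E6.5 and in the EA column of E7.0 and E7.5, and Gal (bottom) is bright in P of E7.5 embryos 3 and 5 and weaker in P of embryo 6.

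In the other tissues of E7.5 Trh had dropped to moderate or low levels. In P the embryo means were 57.3, 8.33, 18.3 and 19.7 FPKM for embryos 3 to 6. Embryo 3 was the highest, owing in part to 204 FPKM in its section 1. In A the means were 42.7, 28.8, 82.0, 6.49, 12.4 and 101 FPKM for embryos 1 to 6. P minus A was 0.14 ± 1.72 log2 units (SD, n = 4), higher in 3 embryos and lower in 1, so the spread was far larger than the mean.

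Within A, Trh was highest in the distal sections of the 3 embryos with 9 or 10 A libraries. In embryo 1 it was 119, 98.5 and 83.1 FPKM in sections 1 to 3 and at most 30.4 from section 4 on. In embryo 2 it was 88.8, 79.8 and 36.5 FPKM in sections 1 to 3 and at most 20.1 from section 4 on. In embryo 3 the fall came later, from 201 FPKM in section 3 to 93.3 in section 5 and 3.81 in section 8. The slope was -5.36 ± 1.21 log2 units and negative in all 3 embryos (SD, n = 3). The mesoderm held less Trh than endoderm, by 3.78 ± 1.83 log2 units (SD, n = 2). Its highest value was 282 FPKM, in MA of embryo 6 at section 6, while MP did not exceed 49.5. In embryo 4 the E1 and E2 libraries held 10.9 to 258 FPKM of Trh while M1 and M2 held 0 to 22.1, so that the 2 kinds of code overlapped only between 10.9 and 22.1.

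Gal had a later onset. It was 0 in all 44 libraries of E5.5 and E6.0. It was above 0 in 14 of 109 libraries at E6.5 and in 29 of 101 at E7.0. In both stages all values but 1 were under 10 FPKM. The highest at E6.5 was 11.8 FPKM, in the tip section of embryo 1, and the highest at E7.0 was 13.1 FPKM, in P of embryo 2 at section 10. In P of that embryo 10 of 11 libraries were above 0, against 1 of 11 in P of embryo 1. All 28 EA and EP libraries of E6.5 were at 0, and a single Gal read there was worth 0.80 to 1.48 FPKM in the median library of each embryo and region, so that lower levels were not detectable.

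At E7.5 Gal was above 0 in 154 of 219 libraries, and its centre was the posterior epiblast. P of embryo 3 ran from 73.8 to 482 FPKM with a median of 280 over 10 sections. P of embryo 4 reached 832 FPKM with a median of 194, and P of embryo 5 ran from 136 to 716 with a median of 204, again over 10 sections each. P of embryo 6 ran from 6.15 to 42.4 FPKM, below every P library of the other 3 embryos. Median depth in P was 3071000 reads in embryo 6, 3064000 in embryo 5, 3749000 in embryo 4 and 7599000 in embryo 3, and its part in the Gal values was not tested. The mean over all 40 P libraries was 201 FPKM, which placed Gal 356th among the genes of P.

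Even in embryo 6, P stood above A. P exceeded A in 8 of 10 sections of embryo 3 and in all 3 sections compared in embryos 4, 5 and 6. The difference was 5.49 ± 0.85 log2 units and positive in 4 of 4 embryos (SD, n = 4). Sections 1 and 2 of embryo 3 were the 2 exceptions, with 284 and 134 FPKM in A against 107 and 73.8 FPKM in P.

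Those exceptions belong to a second site of Gal, the distal tip of A. In section 1 of A Gal was 1148 FPKM in embryo 1, 367 in embryo 2 and 284 in embryo 3. In section 2 it was 343, 92.7 and 134 FPKM, and in section 3 it was 77.2, 29.5 and 21.7 FPKM. From section 4 on, none of the 19 A libraries of these embryos exceeded 8.81 FPKM. The slope over A was -7.66 ± 1.64 log2 units (SD, n = 3), negative in each embryo. A of embryos 4 to 6 was mapped only at sections 3, 6 and 9, where the highest value was 6.76 FPKM, so the tip of these embryos was not seen.

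Markers of the node and axial mesoderm, the organizer tissue at the distal tip, peaked in the same tip libraries. Noto, a transcription factor gene of the node, was 674, 183 and 107 FPKM in section 1 of A of embryos 1, 2 and 3. The 15 node markers in the tables summed to 6512, 1783 and 1470 FPKM there, with 13 of 15 at 1 FPKM or more in each. In section 2 the sums fell to 202, 67.4 and 534 FPKM. Noto in section 2 was 1.80, 0.94 and 44.5 FPKM, so in embryos 1 and 2 Gal stayed high in a section with little Noto. The node's part in the Gal values was not tested.

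**Figure D3:**
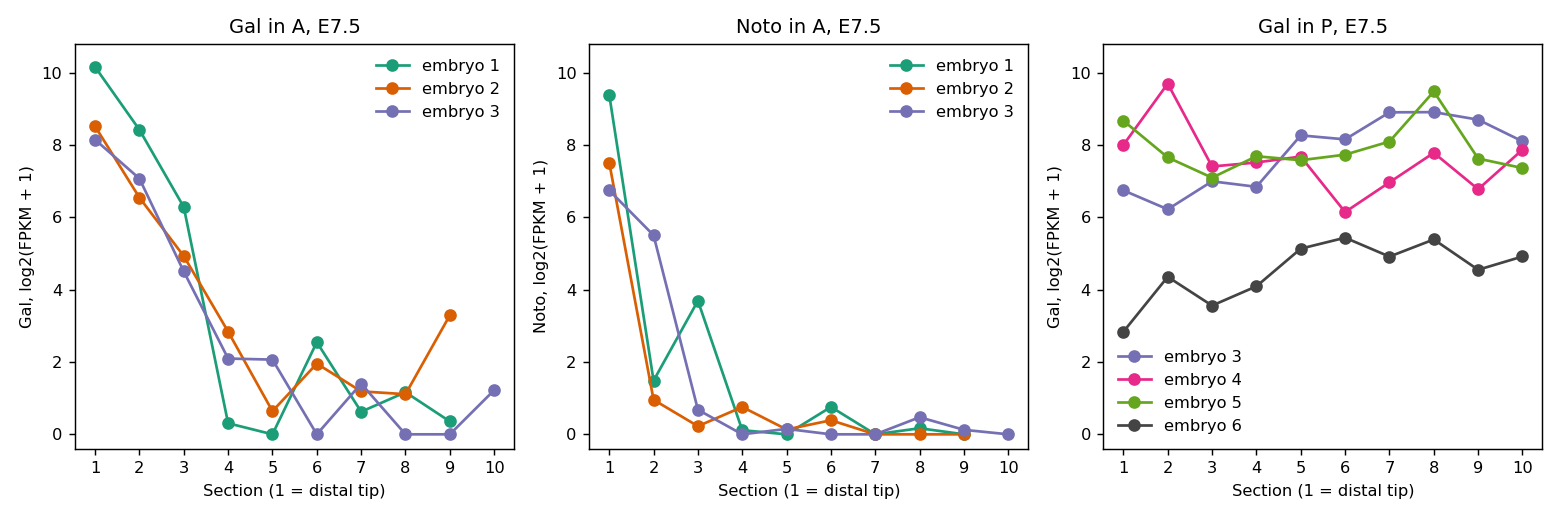
Gal in A (left), Noto in A (middle) and Gal in P (right) at E7.5 as log2(FPKM + 1), by section from distal to proximal, with 1 line per embryo. Gal falls over the first 4 sections of A in embryos 1 to 3 and Noto falls faster, while Gal in P is spread over all 10 sections and embryo 6 lies under the other 3.

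Embryo 3, with libraries around its whole circumference, showed Gal falling from posterior to anterior. Over sections 3 to 9 the median was 308 FPKM in P. It was 43.0 FPKM in L2 and 26.1 in R2, and then 3.27 in L1 and 1.15 in R1, and 1.64 in A. P did not overlap L2 or R2, since the lowest P library held 114 FPKM and the highest L2 library 74.8. Trh in the same 7 sections had no such order, with medians of 41.8 FPKM in P, 74.2 in L2, 25.6 in R2, 108 in L1, 26.9 in R1 and 34.7 in A. Both genes were higher on the left code than on the right. L1 exceeded R1 in 7 of 7 sections for each gene and L2 exceeded R2 in 6 of 7 for each. This is 1 embryo. At E7.0, Gal was at 0 in all 6 L libraries and at most 0.60 FPKM in R. Trh at E7.0 had no shared order of the sides. In embryo 2 its mean was 8.40 log2 units in R and 8.01 in L, and in embryo 1 it was 6.41 in R and 7.46 in L.

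The mesoderm and endoderm of the posterior side carried Gal at a lower level than P. MP of embryo 5 held 33.6 to 133 FPKM and MP of embryo 6 held 0 to 7.73 FPKM. EP of embryo 5 held 0 to 71.9 FPKM and EP of embryo 6 held 0 to 2.83. Embryo 6 was thus low in each posterior layer. MP exceeded MA in 9 of 9 sections of embryo 5 and 7 of 9 of embryo 6. MP was below P in all 9 sections of both embryos, and EP was below P in all 9 as well. Mesoderm minus P was -3.86 ± 0.54 log2 units and endoderm minus epiblast -3.89 ± 0.32 (SD, n = 2). The second value rests mostly on P, since A was in 3 of the 9 sections, and it was -1.82 in the sections that held all 4 regions. EA was at 0 in all 9 libraries of embryo 6 and did not exceed 12.8 FPKM in embryo 5. How much of the MP and EP signal came from neighbouring epiblast cells was not tested. The sum of 20 primitive streak markers in MP was 251 FPKM in embryo 5 and 652 FPKM in embryo 6, against 1088 and 1675 in P.

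Placed in order of level, few neighbouring groups had embryos that did not overlap. For Trh the order ran from EA at E7.5 (8.56 log2 units), through L and EA at E7.0 (7.74 and 7.72), the EA/EP tip at E7.5 (7.45), R and A at E7.0 (7.40 and 7.01) and P and A at E6.5 (6.98 and 6.67), to EP at E6.5 (1.00), P and A at E5.5 (0.42 and 0.23) and the E5.5 tip (0.17). Among the 24 neighbouring pairs of groups with at least 2 embryos, only EA and EP of E6.5 had embryo ranges that did not overlap. For Gal, P at E7.5 (6.95) was followed by MP (3.82), the EA/EP tip (3.14), EP (2.45) and A (1.90) at E7.5, and all other groups of at least 2 embryos had means of 1.02 or less. Of the Gal neighbours, only M and A at E7.0 had embryo ranges that did not overlap (0.89 and 0.66). P and MP overlapped because MP of embryo 5 (6.16) lay above P of embryo 6 (4.52).

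The 2 genes were not related to each other across libraries, with a Pearson correlation of -0.03 over 473 libraries, and no p-value is given because libraries of 1 embryo are not independent. Among the 8 genes most like Gal over the same libraries were Cdx1 (r = 0.85), Gbx2 (0.82), Nkx1-2 (0.81), Aldh1a2 (0.81), Hoxb1 (0.81), Hoxa2 (0.80) and Hes7 (0.79). Hoxb1, Hoxa2, Cdx1 and Gbx2 are homeobox genes of body patterning, and Aldh1a2 encodes an enzyme that makes retinoic acid. All of those named except Nkx1-2 were also among the 8 most like Gal over 81 means of an embryo and region.

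In P of E7.5 embryo 6, where Gal was low, Aldh1a2 was low too, at 2.01 FPKM against 24.2 to 50.1 in the others. Cdx1, Hoxb1 and Hoxa2 had their lowest mean FPKM of the 4 embryos there as well, but close to that of embryo 4. Cdx1 was 29.9 FPKM in embryo 6 and 35.4 in embryo 4, Hoxb1 was 51.7 and 56.2, and Hoxa2 was 2.76 and 3.75. As a mean of log2 values Hoxb1 was 5.67 in embryo 6 and 5.42 in embryo 4, the lower of the 2, and Cdx1 was 4.83 and 4.85. Gbx2, Nkx1-2 and Hes7 were not lowest in embryo 6 on either scale. T, the Brachyury gene of the primitive streak, was highest in embryo 6 at 798 FPKM against 322 to 444, and Pou5f1, a pluripotency gene, was 404 FPKM against 125 to 296. T, Pou5f1 and Nanog, at 29.1 FPKM against 10.3 to 16.8, were picked after these values were seen. The other streak genes looked at, Mixl1, Fgf8 and Wnt3a, lay within the range of the other 3 embryos, at 108 FPKM against 49.3 to 159, 37.9 against 18.1 to 61.1 and 27.9 against 20.5 to 50.3. Cdx2 did too, at 23.3 FPKM against 17.9 to 56.4. Their part in the low Gal of embryo 6 was not tested.

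The genes most like Trh matched it far less closely. They were Fam213a (r = 0.53), Epcam (0.53), Cd24a (0.53), Pea15a (0.52), Ier2 (0.52), Eras (0.52), Rac3 (0.51) and Gltp (0.51). Epcam encodes an adhesion molecule of epithelia and Cd24a a small surface glycoprotein. Of the 8, Fam213a and Gltp were also among the 8 most like Trh over the embryo and region means. Fam213a had 18.1 ± 2.76 FPKM in A and 3.22 ± 1.69 in EA at E6.5, and 35.0 ± 11.2 in A and 60.2 ± 8.06 in EA at E7.5 (SD, n = 6 in A and 2 in EA), so its order of these 2 regions changed as that of Trh did. Its order of EA and EP was opposite to that of Trh. Mean Fam213a in EP was above that in EA at both stages, at 8.95 ± 1.25 FPKM at E6.5 and 64.8 ± 21.0 at E7.5 (SD, n = 2). Fam213a was picked by its correlation with Trh over these same libraries. Epcam had 137 ± 34.0 FPKM in A and 34.4 ± 8.75 in EA at E6.5 (SD, n = 6 and 2) but 131 ± 50.9 in A and 72.5 ± 3.05 in EA at E7.5 (SD, n = 6 and 2), so A was the higher of these regions at both stages. The neighbours on the chromosome were not like the 2 genes, with correlations of 0.22 (Rbsn) and 0.06 (Prickle2) for Trh and 0.03 (Tesmin) and 0.08 (Ppp6r3) for Gal.

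The receptors of the 2 peptides were at low levels. Of 473 libraries, Trhr was above 0 in 171 and Galr2 in 136, but Galr1 and Galr3 in only 19 each. Galr2 had the highest level of the 5, with 1.85 ± 1.34 FPKM in A at E7.5 (SD, n = 6). In P it was 0.43 ± 0.22 FPKM (SD, n = 4) and was 0 in 25 of 40 libraries. Galr2 was the only receptor tested in any fit at E7.5. It passed the filter of a mean of at least 1 FPKM at E5.5 and at E7.0, where P held 1.25 FPKM and A 1.15, and not through E7.5, where the paired P and A libraries had a mean of 0.79. At E7.5 it was lower in P than in A by 0.79 ± 0.15 log2 units (SE; limma adjusted p = 0.00135), at levels near the limit of detection. Trhr had its highest group mean, 1.12 FPKM, in E1 of embryo 4. That mean came mostly from 1 library of 8.78 FPKM and was 0.16 without it. In EA at E7.5 Trhr was 0.12 ± 0.01 FPKM (SD, n = 2) and 0 in 15 of 18 libraries. Trhr2 had its highest group mean in P of E5.5 at 1.46 FPKM, from 1 library of 14.6 FPKM with the other 9 at 0. It was above 0 in 25 of 473 libraries in all. Galr1 and Galr3 did not exceed 0.15 FPKM in any group of at least 5 libraries.

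Trh and Gal were the 2 highest of 62 peptide hormone and neuropeptide genes in the tables, each taken in its own highest group of at least 5 libraries. Trh reached 517 FPKM in EA and Gal 201 in P at E7.5. Next came Calca (106 FPKM in A at E7.0), which encodes calcitonin and its related peptide, Adm (65.4 in EP at E7.0), which encodes adrenomedullin, and Apln (39.2 in P at E7.5), which encodes apelin. The Calca mean rests on 1 library, section 1 of embryo 2 with 542 FPKM, and without it was 33.4 FPKM, which is below Adm and Apln. Without their own highest library Trh was 480 FPKM, Gal 184, Adm 55.2 and Apln 38.0. Of the 62, 30 reached a mean of 1 FPKM in some group and 10 reached 10 FPKM, and without the highest library of each group 18 and 10 did. The members Trh and Gal were chosen with these levels known, so their place in this order is a description.

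**Figure D4:**
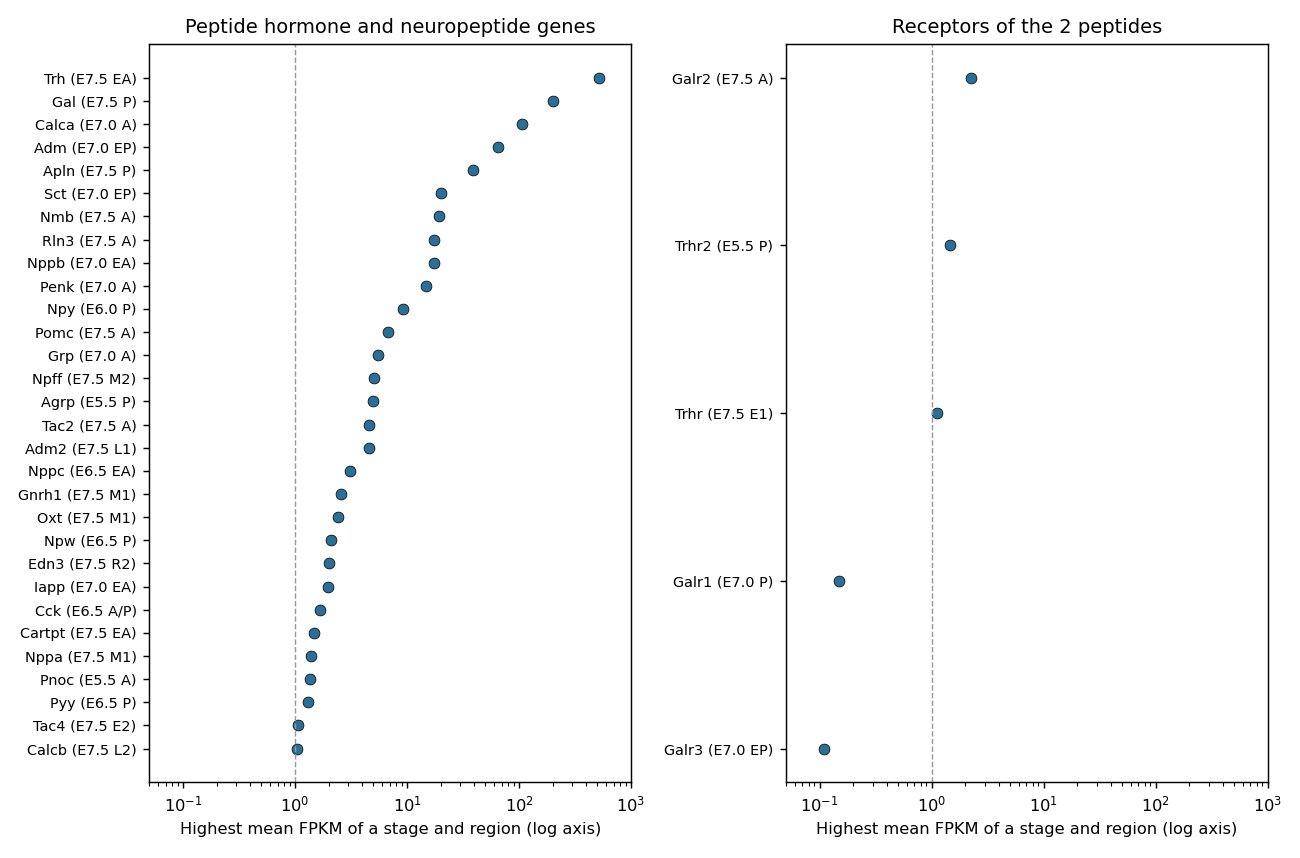
Highest mean FPKM (log x axis) over any stage and region of at least 5 libraries for the 30 of 62 peptide genes that reached 1 FPKM (left, with the group in brackets) and for the 5 receptors (right). Trh and Gal head the peptide genes at 517 and 201 FPKM, Calca at 106 FPKM falls to 33.4 without 1 library, and no receptor exceeds a mean of 2.26 FPKM.

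The processing machinery was present but modest. Of 21 listed genes, 16 reached a mean of 1 FPKM in some group, and 12 did without the highest library of that group. The highest were Pcsk1n, an inhibitor of a prohormone convertase (25.7 FPKM in L1 at E7.5), Cpe, the carboxypeptidase of neuroendocrine granules (23.1 in L1 at E7.5), and Cpm, a carboxypeptidase of the cell surface (15.8 in EA at E7.5). Pam, the amidating enzyme, had its highest mean in P at E6.0, 10.2 FPKM, but this came from 1 library of 75.3 FPKM and was 0.88 without it. Chga and Scg5, a granule protein and a helper of the convertase Pcsk2, reached 6.20 and 3.83 FPKM, the latter 2.55 without its highest library. Among the convertases Pcsk5 reached 5.20 FPKM in MA, Pcsk2 3.61 in L1, Furin 3.35 in A and Pcsk7 2.05 in L1 at E7.5, Pcsk6 1.98 in P at E6.0, Pcsk1 1.63 in L at E7.0 and Pcsk4 1.35 in R1 at E7.5. Without its highest library Pcsk1 was 0.64 FPKM. Cpd, Qpctl and Scg3 reached 3.07, 2.86 and 2.60 FPKM, but Scg3 was 0.15 without 1 library of 22.2 FPKM.

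Of the carboxypeptidases at E7.5, Cpe was called lower and Cpd higher in endoderm than in epiblast. This fit called 45.7% of all genes tested. Cpm was 15.8 ± 8.82 FPKM in EA and 8.60 ± 4.55 in EP but 0.61 ± 0.20 in P (SD, n = 2, 2 and 4 embryos), a difference of 2.91 ± 0.30 log2 units (SE) between endoderm and epiblast. It passed the filter through endoderm alone, so its test is not read as a result. Cpe was 1.22 ± 0.01 FPKM in EA and 10.9 ± 3.46 in P (SD, n = 2 and 4), lower in endoderm by 3.00 ± 0.25 (SE, limma adjusted p = 9.8e-06). Cpe, the form that trims neuropeptides in granules, was thus low in the tissue with most Trh. Cpd, another carboxypeptidase, was higher in endoderm by 0.60 ± 0.21 log2 units (SE, limma adjusted p = 0.036). Its means were 3.01 FPKM in endoderm and 1.52 in epiblast. Pam, at 2.99 ± 1.10 FPKM in EA and 2.11 ± 1.34 in P (SD, n = 2 and 4), did not pass the test.

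Over the 4 pathway lists (21 processing genes, 5 receptors, 7 breakdown genes and 60 other peptide genes in the tables), 23 could be tested between endoderm and epiblast at E7.5. In that fit 45.7% of all genes tested were called. Of the 9 processing genes tested, 2 rose and 1 fell in endoderm, with a list median of 0.01 log2 units against -0.38 over all genes. Of 10 other peptide genes tested, 2 rose (Nppb by 1.56 and Sct by 0.98) and 6 fell (Apln, Calca, Nmb, Pomc, Penk and Grp), with a median of -0.63. Of 4 breakdown genes, Ece1 and Ece2, endothelin-converting enzymes, both fell, by 0.88 and 0.89 log2 units, with a median of -0.71. In all, 13 of 23 or 56.5% were called, near the background of the fit. Of the 13, Cpm, Nppb, Ece1, Pomc and Grp, 5 in all, passed the filter only through the tissue where they were higher, which favours their call. Without E7.5 embryo 6, 4 in place of 13 of these genes were called, and without pairing regions within embryos, 4 were.

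Between P and A at E7.5, 13.9% of all genes were called. Of 31 pathway genes tested, 3 were higher in P and 8 lower. Apln was higher in P like Gal, by 3.10 ± 0.20 log2 units (SE), at 39.2 ± 10.7 FPKM in P and 4.77 ± 2.42 in A (SD, n = 4 and 6; limma adjusted p = 8.2e-09). Adm (1.32) and Sct (1.03) were the other 2. Calca, which is also on the list of node markers, was lower in P by 3.02 log2 units, Penk, the enkephalin precursor gene, by 1.85, Rln3, the relaxin 3 gene, by 1.50 and Grp by 1.25. Pcsk1n, Scg5 and Chga were lower too, by 1.13, 0.81 and 0.71, and Galr2 was the eighth. Of the 11, Adm and Scg5 passed the filter only through the region where they were higher. The list medians were -0.07 for 11 processing genes and -0.14 for 15 other peptide genes, against 0.15 over all genes. Of the 4 breakdown genes tested none was called by limma, nor at an unadjusted p (0 of 4). With libraries rescaled to a sum of 1000000, 5 pathway genes were higher in P and 8 lower. Without the pairing, 5 of the pathway genes were called, and without embryo 3 or embryo 5, 7 were.

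In the remaining E7.5 fits 1 to 8 pathway genes were called. Between mesoderm and P, with 26.3% of all genes called, Pcsk5 was higher in mesoderm by 1.50 log2 units and Apln, Cpe, Rln3 and Qpctl were lower, by 4.07, 1.53, 0.65 and 0.62, 5 of 22 tested or 22.7%. Pcsk5 passed the filter only through mesoderm. Leaving out either E7.0 embryo raised this to 13 or 11, leaving out E7.5 embryo 5 gave 3, and without the pairing 2 were called. With libraries rescaled to an equal median, 4 were higher and 2 lower in mesoderm, so the direction of this list depends on the scaling. Between mesoderm and endoderm, with 15.1% called, Cpe, Pcsk5 and Ece1 were higher in mesoderm and Cpm, Adm, Nppb, Rln3 and Cpd lower, 8 of 24 tested or 33.3%. Of these 8, 5 passed the filter only through the tissue where they were higher, the exceptions being Cpe, Cpd and Rln3. With the median rescaled 5 were higher and 5 lower. Between EP and EA, with 0.266% called, Calca alone passed, lower in EP by 1.67 ± 0.27 log2 units (SE, limma adjusted p = 0.028), and in limma fits with another pseudocount, with either rescaling, without the filter, without the pairing, or without any 1 of the 4 embryos of E7.0 and E7.5, 0 pathway genes passed, with 5 to 10 at an unadjusted p under 0.05. Along the endoderm from distal to proximal, with 6.98% called, Apln, Rln3 and Furin rose and Calca fell, 4 of 25 tested or 16.0%. Without E7.5 embryo 5 limma called 1 pathway gene there and without embryo 6 it called 0, with 4 at an unadjusted p under 0.05. With libraries rescaled to a sum of 1000000, 0 rose and 1 fell.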

How the data were processed

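Per the labels' protocols, embryos were embedded, cryosectioned and laser-microdissected, and libraries were made with Nextera XT after guanidine extraction. The submitters' processing notes name mm10, TopHat2 2.0.8b and Cufflinks 2.1.1. The deposited tables, 1 per embryo, hold FPKM for each gene. The annotation and the options are not given in the sources used here. For 113 samples no column matched, and 111 columns matched no sample and were not used. No 2 libraries were identical. Rough depth, from the FPKM steps of low genes, had embryo medians of 2255000 to 11694000 reads.

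The 2 genes and all lists were chosen with earlier results of these data known. The embryo was the replicate, and nothing in the labels says that embryos came from separate litters. Regions were compared within each embryo and section on log2(FPKM + 1), which understates changes of low genes, and differences were averaged over sections. As a check of this pairing, deviations of A and P from their stage means correlated within embryos by 0.671 to 0.893 at E6.5 and 0.472 to 0.768 at E7.5, across 9223 and 9228 genes, against at most 0.559 and 0.0346 between embryos. Trh and Gal were not tested. For the pathway lists, limma 3.58.1 (R 4.3.3; trend, robust) was fitted to the differences of all genes that passed a filter on a mean of at least 1 FPKM over the libraries of both regions at 1 stage, with 1 coefficient per stage and Benjamini-Hochberg adjusted p under 0.05. A run of limma on simulated data scored only the mean over stages, so it does not check the calls at E7.5. The lists are given at E7.5, where both genes were detected in most libraries. Named genes are detected receptor and processing genes, called members of the other lists, and the 8 genes with the highest Pearson correlation with each gene among 7826 genes with a mean of at least 5 FPKM in a group. One of these genes is not reported here. Markers come from lists of cell types. Alternatives were a pseudocount of 0.1, libraries rescaled to a sum of 1000000 or to an equal median, no filter, each embryo left out, no pairing, and, chosen after seeing the data, no libraries of few genes only sections with every region, and group means without the highest library. Software was Python 3.11.15, pandas 2.3.3 and matplotlib 3.10.9.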

Additional observations from a re-analysis of the deposited data

Results flagged for a closer look

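Gal in P of E7.5 embryo 6 had a mean of 4.52 log2 units, against 7.59 to 7.90 in the other 3 embryos. Gal in the tip section (A/P) of E6.5 embryo 1 stood at 3.68 log2 units, from 1 library, while the other 5 embryos were at 0. Both stand out by their gap to the nearest other embryo, among 10 groups looked at, where chance alone would single out about 1 group in 20 of evenly varying values. That rate does not hold for the tip section, since with 5 embryos at 0 any single detection stands apart. These are descriptions of the 2 genes and not tests.

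Trh in endoderm minus epiblast was lower in both E6.5 embryos, by a mean of -4.45 log2 units, and higher in both E7.5 embryos, by 2.97. The distal to proximal slope of Trh in endoderm was positive in both E6.5 embryos (1.29) and negative in both embryos of E7.0 (-3.31) and of E7.5 (-3.46). These differences between stages were not tested.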

How the results depend on the processing

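The 23 Trh and Gal differences had 153 alternative values that could change, as dropping the pairing or the filter leaves such a mean as it is. Of 99 with another scale or choice of libraries, all kept their direction and 17 moved by over 1 SD. Of 54 with 1 embryo left out, 52 kept their direction, and with 2 embryos such a shift is under 1 SD by construction. The other 2 were Trh without E7.0 embryo 2 (-0.49, endoderm minus epiblast) and without E7.5 embryo 4 (-0.45, P minus A), where the spread exceeded the mean. With a pseudocount of 0.1, Trh was -5.87 (endoderm minus epiblast) and -2.04 (EP minus EA) at E6.5 and its endoderm slope at E7.0 was -3.66, and Gal at E7.5 was -5.44 (endoderm minus epiblast), 7.55 (P minus A), -4.89 (mesoderm minus P) and 1.87 (mesoderm minus endoderm). With libraries rescaled to a sum of 1000000, Gal at E7.5 was -4.32 (endoderm minus epiblast), 6.33 (P minus A) and 1.25 (mesoderm minus endoderm), and Trh was -1.93 (EP minus EA, E6.5) and -3.72 (slope, E7.0). Rescaled to an equal median, the last Gal value was 1.01 and the Trh slope -2.98, and without libraries of few genes they were 1.01 and -3.62. With only sections that held every region, Gal in endoderm minus epiblast was -1.82. The cause of these shifts was not tested. Without the replicate block, that is without pairing regions within embryos, limma called 4 pathway genes between endoderm and epiblast, 0 between EP and EA (5 at an unadjusted p under 0.05), 5 between P and A and 2 between mesoderm and P. EP minus EA gave 0 calls with the other pseudocount, both rescalings, no filter or no libraries of few genes. The slope gave 1 call with the other pseudocount, 1 rescaled to a sum, 0 without the filter (9 at an unadjusted p) and 2 without libraries of few genes. Leaving out 1 embryo gave 4 to 15 calls between endoderm and epiblast, 0 to 2 between EP and EA, 7 to 11 between P and A, 3 to 13 between mesoderm and P, and 0 to 5 for the slope. Of the 8 genes most like each, 2 for Trh stayed by embryo and region means and 3 by Spearman, and 4 for Gal by Spearman. A read of Gal was worth 0.58 FPKM in the median library, which limits what a 0 shows.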
